A study of Mus musculus with 3 samples.

Results

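A group of 10 genes of the extracellular insulin-like growth factor (IGF) control system was followed in cells of the mouse fracture callus: the IGF binding protein genes Igfbp2, Igfbp3, Igfbp4, Igfbp5, Igfbp6 and Igfbp7, the protease genes Pappa and Pappa2, and the stanniocalcin genes Stc1 and Stc2. The rule that picks them is a list of names matched to the gene symbols, and they make up 10 of the 32285 genes in the deposited matrices. The cells came from the callus of C57BL/6 mice 7, 10 or 14 days after a femoral fracture, with no uninjured control. By the study's methods, the femur was cut and pinned with intramedullary steel under isoflurane, and buprenorphine was given before and after. Muscle and bone marrow were removed, the callus was digested with collagenase, and live cells without CD45, CD31 and TER119, the surface markers of white blood cells, endothelium and red cells, were sorted and captured on a droplet platform that counts transcripts by unique molecular identifiers (UMIs). Each day is 1 library. The age of these mice and the number of animals per library are not given in the sources used here.

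IGF1 and IGF2 are secreted growth factors that drive growth and survival of skeletal cells through the IGF1 receptor. In tissue they are held by binding proteins, which can store IGF in the matrix or keep it from its receptor. Pregnancy-associated plasma protein A, encoded by Pappa, cuts IGFBP4 and IGFBP5 and so frees IGF close to the cell surface. Its relative encoded by Pappa2 cuts IGFBP3 and IGFBP5. The stanniocalcins encoded by Stc1 and Stc2 bind these proteases and block them. IGFBP7 differs from the others in that it binds IGF only weakly. The question put to these libraries was which callus cells transcribe the holding, the releasing and the blocking arm, and whether this shifts from day 10 to day 14.

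Cells were compared by gates, groups of cells without a Ptprc (CD45) UMI that are high for 1 named gene. A cell was high for a gene with at least 3 UMIs and a level at or above the 99th percentile of UMIs per 10000 divided by 4. A cell high for several genes went to the gate where it stood highest above the threshold. The 6 gate genes were Aspn (asporin, a matrix protein of the Postn+ osteoprogenitors), Igf1, Cnmd (chondromodulin, of cartilage), Col10a1 (the collagen of hypertrophic cartilage), Ifitm5 (of mineralizing osteoblasts) and Rgs5 (of pericytes). Levels are UMIs per 1000000 UMIs of the gate (CPM), with exact 95% Poisson intervals in brackets. There are no replicates, so no p-value is given, the intervals cover counting error only, and differences between days cannot be told apart from differences between libraries. A ratio was called when it reached 2-fold with at least 10 CPM in the higher group. The libraries count the ends of transcripts, so a CPM is a number of molecules and is not scaled by gene length.

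The day 7 library stood apart. Of its 7017 cells within the quality limits, 6570 had a Ptprc UMI, against 6 of 6593 at day 10 and 173 of 9853 at day 14. The cells in the 6 gates numbered 10388, of which 79 came from the day 7 library, 4428 from day 10 and 5881 from day 14. Only the Cnmd gate held enough cells for a value at day 7 (56). At day 10 and day 14 the gates held 850 and 2094 Aspn-high, 342 and 787 Igf1-high, 2665 and 1571 Cnmd-high, 380 and 866 Col10a1-high, 120 and 365 Ifitm5-high, and 71 and 198 Rgs5-high cells. The median depth of gated cells was 19269, 17570.5 and 16410 UMIs on the 3 days. Each gate led the other 5 in the markers of its cell type on both days: pericyte markers, for example, summed to 10977 and 11891 CPM in Rgs5-high cells. Each of these lists holds the gate gene itself, so the lead is set in part by the gating and is a description. The Rgs5-high gate also held the endothelial list at 57.5 and 40.0 CPM, mostly Emcn, against at most 4.9 CPM in any other gate. Within that gate Cdh5 and Tek had no UMI on either day, and Kdr had none at day 10. Neutrophil genes, which callus cells should lack, summed to 2005 CPM in the day 7 Cnmd-high cells against 2.57 at day 10, and in the Igf1-high gate were 3.45 CPM at day 10 and 614 at day 14. The libraries of day 10 and day 14 shared 35 deposited barcodes, of which 9 were gated in both libraries. Leaving out every shared barcode took the Aspn gate of day 10 from 850 to 840 cells and the Cnmd gate from 2665 to 2651. No gated cell of day 7 shared a barcode. The Aspn and Igf1 gates border each other, since 1316 cells were high for both, 36.7% of all Aspn-high and 65.7% of all Igf1-high cells.

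The genes lie at these places in the GRCm38 assembly. Igfbp2 (chr1:72824503-72852474, plus strand) and Igfbp5 (chr1:72857932-72874884, minus strand) are neighbours separated by 5457 bases. Igfbp3 (chr11:7206086-7213923, minus strand) lies 3539 bases from Igfbp1, and Igfbp4 (chr11:99041244-99054392, plus strand) and Stc2 (chr11:31357307-31370074, minus strand) are on the same chromosome. The others are Igfbp6 (chr15:102144362-102149511, plus), Igfbp7 (chr5:77349240-77408041, minus), Pappa (chr4:65124174-65357509, plus), Pappa2 (chr1:158711727-158980490, minus) and Stc1 (chr14:69029238-69041804, plus).

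The promoters of 3 genes are shown because the results turn on these genes: Igfbp4 and Igfbp5, whose levels ran together over the gates, and Igfbp7, which took the largest share of the family. Each is the 250 bases before the RefSeq start in GRCm38.p6, written 5′ to 3′ on the gene's strand. Capitals mark matches on either strand to TATAAA (the TATA box), to GGGCGG (the GC box) and to CACGTG (an E-box).
Igfbp4 (chr11:99040994-99041243, plus): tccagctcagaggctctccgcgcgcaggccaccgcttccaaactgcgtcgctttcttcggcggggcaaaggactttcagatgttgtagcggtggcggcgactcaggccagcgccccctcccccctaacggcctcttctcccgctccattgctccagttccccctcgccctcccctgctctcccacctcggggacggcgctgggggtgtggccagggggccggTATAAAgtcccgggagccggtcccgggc
Igfbp5 (chr1:72874866-72875115, minus): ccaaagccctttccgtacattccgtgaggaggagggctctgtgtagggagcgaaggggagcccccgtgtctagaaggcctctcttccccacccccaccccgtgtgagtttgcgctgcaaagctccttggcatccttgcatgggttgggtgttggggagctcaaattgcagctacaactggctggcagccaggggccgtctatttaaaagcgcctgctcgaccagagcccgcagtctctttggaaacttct
Igfbp7 (chr5:77408046-77408295, minus): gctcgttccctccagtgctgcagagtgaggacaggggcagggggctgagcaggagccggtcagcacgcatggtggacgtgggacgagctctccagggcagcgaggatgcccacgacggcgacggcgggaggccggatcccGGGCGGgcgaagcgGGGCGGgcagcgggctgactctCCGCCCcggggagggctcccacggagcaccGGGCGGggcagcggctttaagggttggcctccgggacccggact
Igfbp4 held TATAAA with its first base at -28 from the start. Igfbp7 held GGGCGG 4 times, at -110, -96, -74 and -44. None of the 3 motifs was found in the window of Igfbp5. Over 32851 mouse promoters of this length, TATAAA was found in 12.4%, GGGCGG in 32.7% and CACGTG in 6.02%. These are matches of letters, not sites of binding.

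Summed over the 10 genes, the family was most abundant in Rgs5-high cells (7803 CPM at day 10, 8502 at day 14), followed by Igf1-high cells (5945 and 7592), Aspn-high cells (3333 and 4894) and Cnmd-high cells (2535 and 3430). Ifitm5-high cells (737 and 1015) and Col10a1-high cells (488 and 581) were lowest. The make-up differed between gates as well. Igfbp7 supplied 94.1% and 93.6% of the family's UMIs in Rgs5-high cells and 91.2% and 92.6% in Cnmd-high cells. In the Aspn gate its share was 53.7% on both days, with Igfbp4 at 18.8% and 20.5% and Igfbp5 at 16.4% and 14.3%. In the Igf1 gate the 3 genes took 63.6%, 17.6% and 13.1% at day 10 and 58.3%, 18.1% and 18.2% at day 14. Per UMI of the ligands Igf1 or Igf2, Aspn-high cells held 4.87 and 5.56 Igfbp UMIs and Cnmd-high cells 10.0 and 14.9. Igfbp7, which binds IGF only weakly, made up 118846 of 129204 Igfbp UMIs in Cnmd-high cells at day 10 and 104798 of 112057 at day 14. In Aspn-high cells it made up 22853 of 42144 and 79112 of 146319. The ratios are therefore not a measure of IGF held and do not rank the gates. The value of Igf1-high cells, 1.80 and 2.42, is set by the gate, which selects for Igf1, and is given as a description. The Aspn value is also shaped by the gates, since cells that stood higher for Igf1 went to the Igf1 gate.

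**Figure D1:**
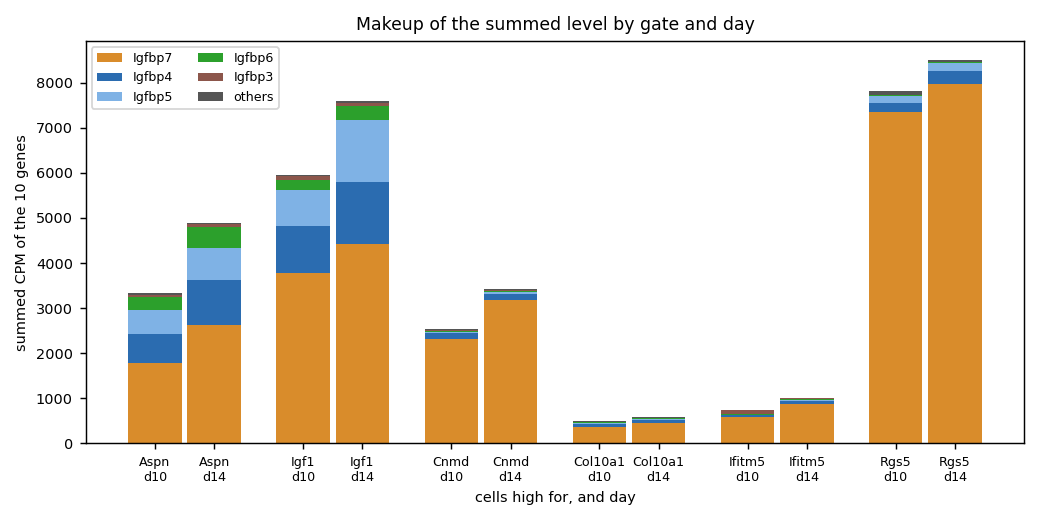
Stacked bars give the summed CPM of the 10 genes in each gate at day 10 and day 14, split by gene, with the 5 genes other than Igfbp3 to Igfbp7 pooled as others. Igfbp7 fills nearly all of the Rgs5 and Cnmd bars (91.2% to 94.1%), while Igfbp4 and Igfbp5 are visible mainly in the Aspn and Igf1 bars.

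Over the 60 pairs of a gene and a gate at day 10, 43 reached 10 CPM in the gate or in the other gates, and 14 of these were at least 2-fold higher and 21 at least 2-fold lower in the gate than in the other 5 together. Over all genes and gates, 9.38% of 48441 pairs were higher and 9.5% lower. At day 14, 12 were higher and 24 lower of 44, beside 7.16% and 9.99% of 48203 pairs. The higher calls sat in the stromal gates: 5 in Aspn-high cells on both days (background 12.1% and 8.74%), and 5 and then 4 in Igf1-high cells (6.78% and 3.67%). Cnmd-high cells had 1 on each day, for Stc2 (3.65% and 4.09%), and Rgs5-high cells had 2, for Igfbp7 and Stc1 (18.6% and 14.7%). Ifitm5-high cells had 1 at day 10, for Igfbp3, and none at day 14 (5.82% and 4.82%). Col10a1-high cells had none (8.51% and 6.35%). Lower calls were most frequent in Ifitm5-high cells, with 6 and then all 7 of 7 measured genes (background of lower calls 12.2% and 13.8%). They numbered 5 and 6 in Col10a1-high (11.8% and 15.3%), 5 and 4 in Cnmd-high (12.7% and 12.4%), and 3 and 5 in Rgs5-high cells (11% and 9.67%). The Aspn gate had 1 on each day (5.29% and 5.38%), as did the Igf1 gate (4.04% and 3.66%), each time for Stc2. The 6 ratios of a day share their cells and are not independent. The other gates were pooled by UMIs. Cnmd-high cells gave 45.3% of all UMIs at day 10 and 21.6% at day 14, so the pool differs between the days. Of the 10 genes, 8 had the same leading gate on both days, the exceptions being Igfbp2 and Igfbp3. Of these 8, Pappa2 rests on 3 UMIs in its leading gate on each day, and the first and second gate lay within counting error for Pappa on both days and for Stc2 at day 10. Counted with other gate rules or totals, the number was 6 to 8.

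**Figure D2:**
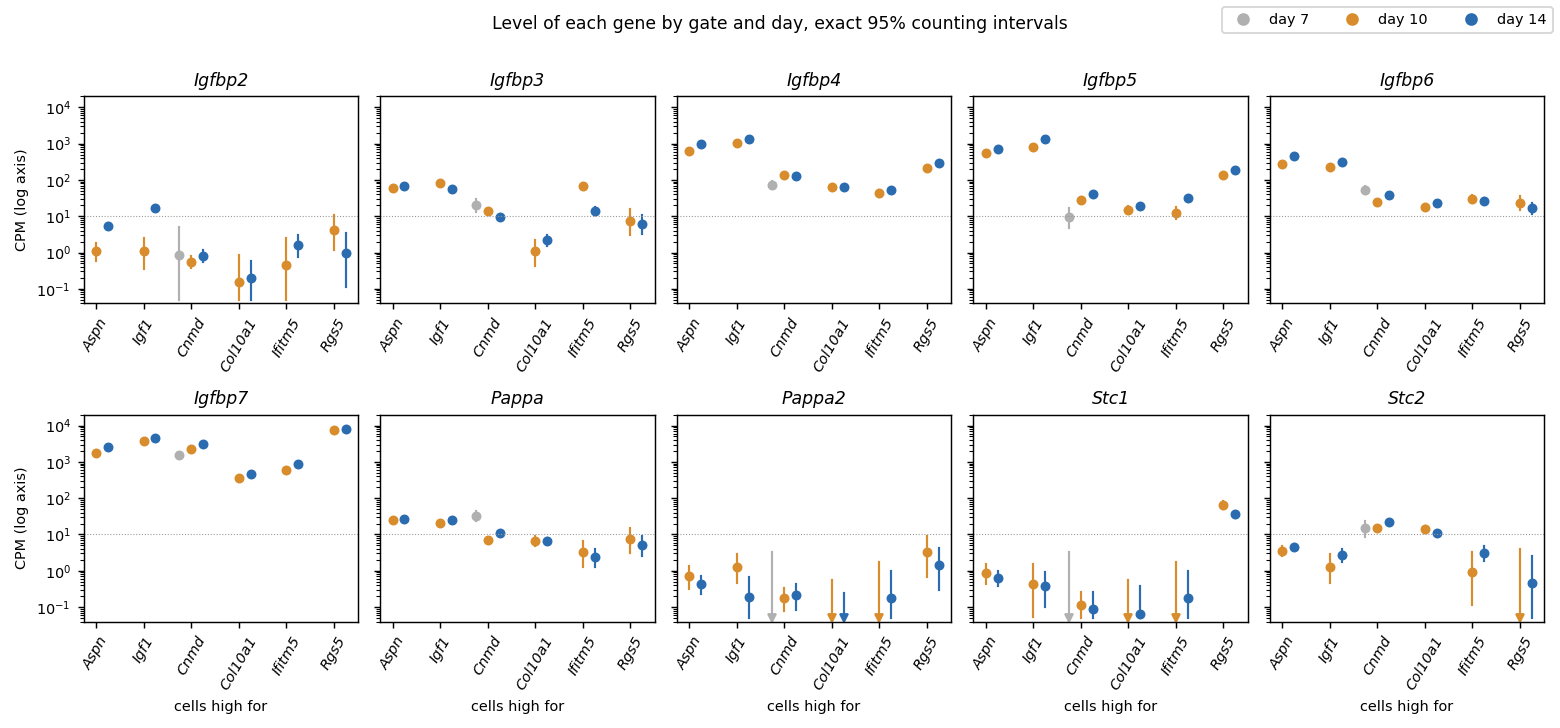
Each panel gives 1 gene; points are CPM on a log axis in the 6 gates at day 7 (grey, Cnmd-high cells only), day 10 (orange) and day 14 (blue), lines are exact 95% counting intervals, triangles at the lower edge mark 0 UMIs, and the dotted line is 10 CPM. Igfbp4, Igfbp5 and Igfbp6 peak in the 2 stromal gates, Igfbp7 is at or above 367 CPM in every gate at day 10 and day 14, Stc1 passes 10 CPM only in Rgs5-high cells, and Stc2 passes it only in the 2 cartilage gates.

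Igfbp7 was the most abundant member in every gate. It stood at 7346 CPM [7174 to 7522] at day 10 and 7960 [7840 to 8080] at day 14 in Rgs5-high cells, 3784 and 4426 in Igf1-high, 2311 and 3177 in Cnmd-high, 1791 and 2629 in Aspn-high, 579 and 881 in Ifitm5-high, and 367 and 454 in Col10a1-high cells. All neighbours in this order differed beyond their counting intervals on both days. Rgs5-high cells exceeded the other gates 3.49-fold at day 10 and 3.09-fold at day 14 (log2 ratios 1.80 [1.77 to 1.84] and 1.63 [1.60 to 1.65]). The level was spread over the cells. With each cell thinned to 2000 UMIs and shallower cells left out, 100% of the Rgs5-high cells kept held an Igfbp7 UMI on both days. Before thinning, 69 of all 71 Rgs5-high cells of day 10 held one. The thinned shares were 97.6% and 97.2% in Igf1-high cells and 92.3% and 95.2% in Cnmd-high cells. In Col10a1-high cells the thinned shares were 40.5% and 39.4%. Cells of the day 7 library with a Ptprc UMI, which should lack the gene, gave 1.68% after the same thinning; their median depth was 5045 UMIs. The corresponding cells of day 14, 173 in all, gave 36.1%, with Igfbp7 at 1364 CPM.

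Igfbp4 and Igfbp5, the binding proteins cut by PAPP-A, were led by Igf1-high cells on both days. Igfbp4 measured 1044 CPM [1015 to 1074] at day 10 and 1374 [1352 to 1396] at day 14 in this gate, then 626 and 1004 in Aspn-high, 208 and 291 in Rgs5-high, 135 and 131 in Cnmd-high, 65.7 and 63.5 in Col10a1-high, and 42.3 and 54.4 in Ifitm5-high cells. Igfbp5 measured 781 [756 to 807] and 1378 [1356 to 1400] in Igf1-high, 545 and 699.5 in Aspn-high, 137 and 184 in Rgs5-high, 28.6 and 40.6 in Cnmd-high, 15.3 and 19.4 in Col10a1-high, and 12.4 and 30.9 in Ifitm5-high cells. Both genes were thus low in the Cnmd, Col10a1 and Ifitm5 gates, Igfbp5 more so. Only the last step at day 10 for Igfbp5, Col10a1-high against Ifitm5-high, lay within counting error. Igf1-high cells exceeded the other gates 4.93-fold for Igfbp4 and 6.64-fold for Igfbp5 at day 10, and 3.24-fold and 5.09-fold at day 14. The pool of the other gates differs between the days, so these folds do not track the change within the gate.

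The 2 genes differed in how evenly the cells carried them. At day 14, 81.7% of thinned Igf1-high cells held an Igfbp4 UMI and 54.9% an Igfbp5 UMI. In the Aspn gate the shares were 75.9% and 34.9%. The Ptprc-positive cells of day 7 gave 3.43% and 0.36%, and those of day 14 gave 19.5% and 7.69%. In Igf1-high cells of day 14 the median Igfbp5 level was 4.79 UMIs per 10000, the 90th percentile was 40.9 and the highest cell reached 361. The Igfbp4 median was 10.8, its 90th percentile 30.6 and its highest value 106. Igfbp5 was thus carried by fewer cells at higher levels. Taking the 99th percentile rule for the members themselves, 654 of all cells without a Ptprc UMI were Igfbp4-high at day 10 and 2235 at day 14 (9.93% and 23.1%). Within the Aspn gate the share was 26.6% and 52.7%, and within the Igf1 gate 46.5% and 60.6%. Igfbp5-high cells numbered 249 and 718, and 30.1% of the Igf1 gate was Igfbp5-high at day 14. Of the Igfbp5-high cells, 32.9% were also Igfbp4-high at day 10 and 61.3% at day 14, beside the 9.93% and 23.1% of all cells. The Aspn gate held 40.6% and 38.2% of the Igfbp5-high cells and the Igf1 gate 22.5% and 33.0%. The Igfbp4-high shares of these gates, given above, are thus the closer comparison.

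Within the stroma, Igfbp4, Igfbp5 and Igfbp7 were more abundant in cells with more Igf1. The Aspn-high and Igf1-high cells of each day were ordered by their Igf1 UMIs per 10000 and split into 4 bins of 298 cells at day 10 and 720 or 721 at day 14. From the lowest to the highest bin Igfbp4 went from 379 over 679 and 798 to 1128 CPM at day 10, and from 737 over 1035 and 1110 to 1540 at day 14. Igfbp7 went from 1207 over 1602 and 3030 to 3613, and from 2001 over 2675 and 3736 to 4024. Igfbp5 stood at 438, 383, 743 and 908 at day 10, with its lowest value in the second bin, and at 420, 542, 960 and 1625 at day 14. Igfbp2 reached 10 CPM only at day 14, where it went from 3.64 over 5.95 and 9.07 to 14.9. Igfbp3 differed between the days, with 38.9, 68.1, 75.8 and 87.9 at day 10 and 65.5, 72.4, 66.5 and 51.1 at day 14. Igfbp6 and Pappa showed no steady course: Igfbp6 was 235, 295, 287 and 238 at day 10 and 366, 439, 454 and 415 at day 14, and Pappa was 24.4, 26.6, 22.9 and 21.4, then 33.3, 25.1, 23.5 and 25.8. The bins also differ in their share of cells from the 2 gates, so the course describes the stroma as a whole.

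**Figure D3:**
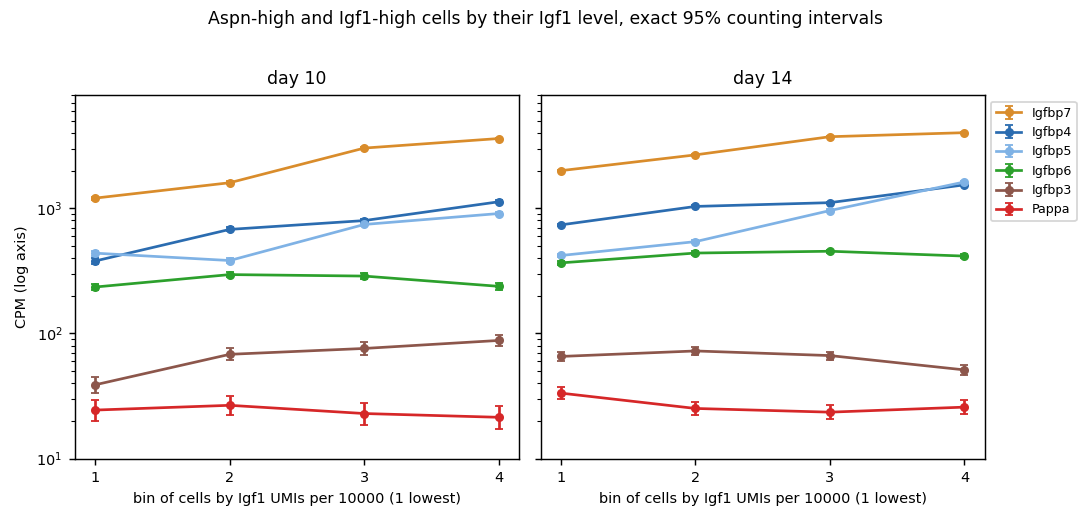
CPM on a log axis in 4 bins of Aspn-high and Igf1-high cells ordered by their Igf1 level, at day 10 (left) and day 14 (right), with exact 95% counting intervals. The lines of Igfbp4, Igfbp5 and Igfbp7 end higher than they begin on both days (Igfbp5 from 420 to 1625 CPM at day 14), while those of Igfbp6 (366 and 415 CPM in the first and last bin of day 14) and Pappa (33.3 and 25.8) differ less between their ends.

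Cells high for both Aspn and Igf1 (336 at day 10, 977 at day 14) separated the pair from Igfbp7. Igfbp4 was 1048 and 1431 CPM in these cells, above cells high for Aspn but not Igf1 (573 and 899) and above cells high for Igf1 but not Aspn (697 and 922). Igfbp5 followed with 929 and 1448 against 479 and 488 and against 345 and 815. The log2 ratios of Igfbp5 over Aspn without Igf1 were 0.96 [0.90 to 1.01] and 1.57 [1.53 to 1.60]. Over Igf1 without Aspn they were 1.43 [1.33 to 1.52] and 0.83 [0.78 to 0.87]. Igfbp7 instead was lowest in cells high for Aspn without Igf1 (1689 and 2395) and intermediate where both were high (3092 and 3457). It was highest in cells high for Igf1 without Aspn (4307 and 5285). These groups can include cells high for another gate gene such as Cnmd. Cells high for Igf1 and Cnmd held Igfbp7 at 4900 and 5650 CPM and Igfbp5 at 226 and 297. Their part in the values without Aspn was not tested.

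Igfbp6, which prefers IGF2, was led by Aspn-high cells with 278 CPM [269 to 288] at day 10 and 458 [450 to 465] at day 14. Igf1-high cells followed with 227 and 312. The other 4 gates lay between 17.0 and 38.2 CPM, and most neighbours among them did not differ beyond counting error. Thinned Aspn-high cells held an Igfbp6 UMI in 31.6% and 45.1%, against 1.12% in the day 7 Ptprc-positive cells and 7.10% in those of day 14.

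Igfbp3, the main IGF carrier of serum, was found at 84.0 CPM [75.8 to 92.7] in Igf1-high, 68.9 [58.3 to 80.9] in Ifitm5-high and 61.1 [56.9 to 65.6] in Aspn-high cells at day 10. The step from Ifitm5-high to Aspn-high lay within counting error. At day 14 the order was Aspn-high (66.4), Igf1-high (57.6) and Ifitm5-high cells (14.0). Cnmd-high cells had 13.6 and 9.76 CPM, Rgs5-high cells 7.46 and 6.12, and Col10a1-high cells 1.08 and 2.19. The Ifitm5-high value of day 10 came from few cells: 7 of 120 cells carried 138 of the 150 UMIs, and 1 cell held 48.

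Igfbp2 stayed below 6 CPM in every gate and day except Igf1-high cells of day 14, where it reached 16.4 CPM [14.1 to 19.0] against 1.08 [0.35 to 2.52] at day 10. Its 177 UMIs lay in 41 of 787 cells, and 18 of these held 145 of them. In Aspn-high cells it went from 1.10 to 5.42 CPM. Its neighbour on the chromosome, Igfbp5, stood at 1378 CPM in that gate and day.

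Pappa, the protease that releases IGF from IGFBP4 and IGFBP5, was a low transcript. Aspn-high cells had 25 CPM [22.3 to 27.9] at day 10 and 27.4 [25.5 to 29.3] at day 14, and Igf1-high cells 20.9 [17.0 to 25.5] and 25.6 [22.6 to 28.8]; these gates did not differ beyond counting error on either day. Cnmd-high cells had 6.90 and 10.8, Col10a1-high cells 6.80 and 6.56, Rgs5-high cells 7.46 and 5.18, and Ifitm5-high cells 3.22 and 2.37. Aspn-high cells exceeded the other gates 3.22-fold at day 10 and 2.41-fold at day 14. After thinning, 4.60% and 4.46% of Aspn-high cells held a Pappa UMI, against 0.129% of Ptprc-positive cells at day 7 and 0 of 169 at day 14.

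Pappa was also found outside the gates. At day 7 the 368 cells without a Ptprc UMI that were high for no gate gene had 102 CPM [91.0 to 113], above every gate on every day, and 11.8% of them held a Pappa UMI after thinning; their median depth was 3513.5 UMIs. At day 10 the 2159 cells without a Ptprc UMI that were high for no gate gene held 63.0% of Pappa UMIs, with 31.0% of all UMIs, and their level was 40.2 CPM [38.1 to 42.3]. That exceeded Aspn-high cells by 0.68 [0.51 to 0.86] and Igf1-high cells by 0.94 [0.64 to 1.25] on the log2 scale. At day 14 the 3799 such cells were at 19.1 CPM [17.9 to 20.2], below Aspn-high cells (log2 ratio -0.52 [-0.65 to -0.39]), and held 40.3% of Pappa UMIs with 36.6% of all UMIs. Pappa-high cells at day 10 numbered 238, of which 68.5% were outside the gates; of the 275 at day 14, 39.6% were. Pappa2 was at or below 3.20 CPM in every gate, from at most 13 UMIs per gate and day, and had no UMI in Col10a1-high cells on either day.

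Stc1 led in Rgs5-high cells. They had 66.1 CPM [50.6 to 84.7], 62 UMIs, at day 10 and 36.3 [28.6 to 45.3], 77 UMIs, at day 14, and every other gate was at or below 0.86 CPM. The ratio over the other gates was 269-fold at day 10 (log2 8.07 [7.31 to 8.90]) and 122-fold at day 14 (6.94 [6.29 to 7.61]). Rgs5-high cells held 56.4% and 52.4% of all Stc1 UMIs with 0.827% and 1.39% of all UMIs, and cells high for no gate gene held another 26.4% and 28.6% at 0.82 and 0.75 CPM. A Stc1 UMI was seen in 24 of the 71 cells and in 38 of the 198. Of the Stc1-high cells, 8 of 8 at day 10 and 5 of 6 at day 14 were Igfbp7-high too, in a gate that was 95.8% and 94.4% Igfbp7-high. Emcn, which was used here as an endothelial marker, moved with Stc1 over the groups. Cdh5 and Tek had no UMI in Rgs5-high cells on either day, and Kdr had none at day 10. The part of endothelial cells in the Stc1 level was not tested.

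Among the gates, Stc2 reached 10 CPM only in the 2 cartilage gates. Cells high for no gate gene held 22.6% and 31.6% of all Stc2 UMIs, with 31.0% and 36.6% of all UMIs. Cnmd-high cells had 15.0 CPM [13.9 to 16.1] at day 10 and 21.7 [20.1 to 23.3] at day 14, and Col10a1-high cells 14.4 [11.6 to 17.6] and 11 [9.39 to 12.8]. The gates did not differ beyond counting error at day 10 (log2 ratio 0.06 [-0.25 to 0.38]) and did at day 14 (0.98 [0.73 to 1.23]). Aspn-high cells had 3.53 and 4.49 CPM, and Igf1-high, Ifitm5-high and Rgs5-high cells stayed at or below 3.1 CPM. The 2 stanniocalcins thus led in different gates. Stc1 had at most 6 UMIs in any cartilage gate and day, and Stc2 had 0 and 1 UMI in Rgs5-high cells. Stc2-high were 0 of 8 Stc1-high cells at day 10 and 1 of 6 at day 14, beside 1.79% and 1.68% of all cells.

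The highest Stc2 level lay where the cartilage gates meet. Cells high for both Cnmd and Col10a1 had 60.9 CPM [46.5 to 78.4] in 45 cells at day 10 and 70.2 [51.6 to 93.3] in 28 cells at day 14. Cells high for Cnmd without Col10a1 had 14.3 [13.3 to 15.4] and 20.2 [18.7 to 21.7], and cells high for Col10a1 without Cnmd had 9.23 [6.95 to 12] and 10.3 [8.70 to 12]. No ratio is given because the double-high groups hold fewer than 50 cells. Their median depth was 21744 and 25249.5 UMIs. It was 19013 and 20836 for Cnmd without Col10a1 and 17118.5 and 17503 for Col10a1 without Cnmd. The part of depth and of doublets in the double-high values was not tested. Igfbp7 in the double-high cells, at 913 and 1195 CPM, lay between the levels on either side. These were 2389 and 3275 in cells high for Cnmd without Col10a1 and 339 and 444 in cells high for Col10a1 without Cnmd. At the other border of the cartilage, 159 and 127 cells high for both Igf1 and Cnmd held 2 Stc2 UMIs on each day (0.84 and 0.97 CPM), against 15.8 and 22.4 CPM in Cnmd-high cells that were not Igf1-high. They held more Igfbp7 (4900 and 5650 CPM) than cells high for Igf1 without Cnmd (3076 and 3833), and Igfbp4 at 570 and 559 CPM.

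**Figure D4:**
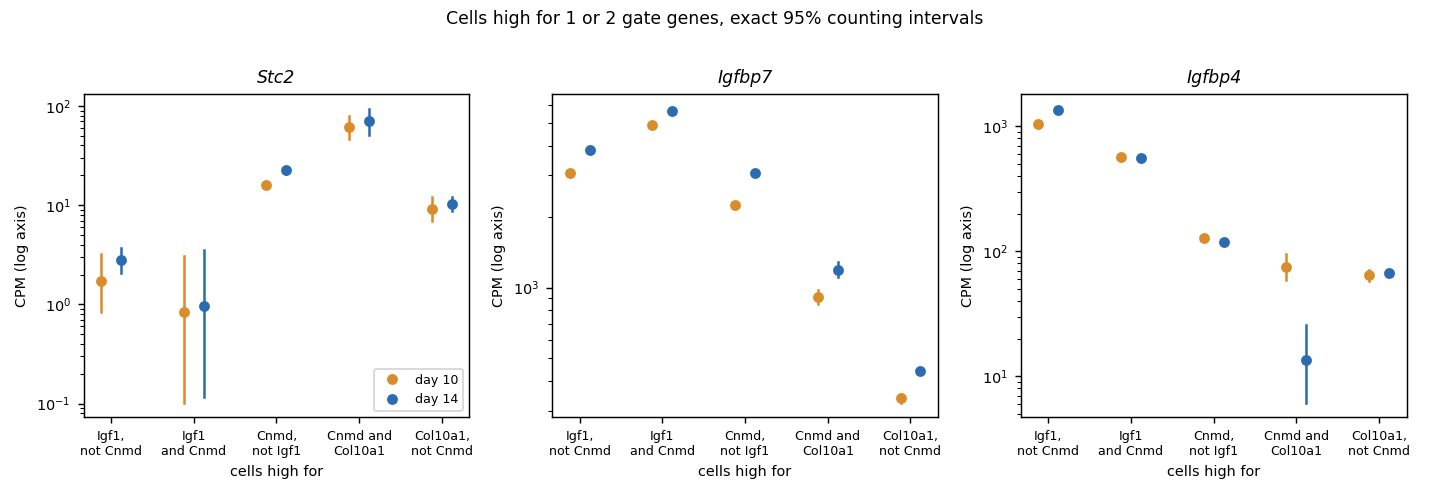
CPM on a log axis of Stc2, Igfbp7 and Igfbp4 in cells ordered from Igf1-high to Col10a1-high over the cells high for 2 gate genes, at day 10 (orange) and day 14 (blue), with exact 95% counting intervals; neighbouring groups can share cells. Stc2 peaks in cells high for both Cnmd and Col10a1 (60.9 and 70.2 CPM), and Igfbp7 peaks in cells high for both Igf1 and Cnmd.

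Between day 10 and day 14, 35 pairs reached 10 CPM on either day, and 3 of them passed 2-fold, 2 higher and 1 lower. Over all genes and gates 2.65% of 46095 pairs passed, 1.11% higher and 1.54% lower. The median log2 ratio of day 14 over day 10 was 0.36 over the 35 pairs, with 23 intervals above 0 and 5 below. Over all 46095 pairs the median was -0.03, and 15.1% of intervals lay above 0 and 21.2% below. The width of an interval depends on the number of UMIs, so these shares are not matched for level. Igfbp7 was higher at day 14 in all 6 gates, by log2 0.12 in Rgs5-high to 0.61 in Ifitm5-high cells. Igfbp6 was higher by 0.72 [0.66 to 0.77] in Aspn-high, 0.46 in Igf1-high, 0.68 in Cnmd-high and 0.40 in Col10a1-high cells, while its intervals held 0 in Ifitm5-high (-0.13) and Rgs5-high cells (-0.47). With only cells high for exactly 1 gate gene, the ratio of Igfbp6 in Igf1-high cells was -0.20 and that of Igfbp5 in Aspn-high cells 0.00. Igfbp4 was higher by 0.68 [0.65 to 0.72] in Aspn-high and 0.40 in Igf1-high cells, while its Cnmd-high ratio was -0.04 [-0.10 to 0.01]. Igfbp5 was higher by 0.82 [0.77 to 0.87] in Igf1-high, 0.36 in Aspn-high and 0.51 in Cnmd-high cells.

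The 3 called pairs each rest on few molecules or cells. Igfbp2 in Igf1-high cells had a log2 ratio of 3.93 [2.68 to 5.57], from 5 UMIs at day 10 and 177 at day 14 (background of higher calls in this gate 0.729%). Igfbp5 in Ifitm5-high cells went from 27 to 170 UMIs (1.32 [0.73 to 1.96], background 0.85%). Igf1 rose beside it in the same gate, from 4.14 CPM [1.89 to 7.85] to 30.8 [26.3 to 35.7], and its part in the Igfbp5 value was not tested. Thinning every cell to 2000 UMIs turned this Igfbp5 ratio to -0.29. Igfbp3 in Ifitm5-high cells went from 150 to 77 UMIs (-2.30 [-2.71 to -1.89], background of lower calls 1.81%). Leaving out the 12 day 14 cells with at least 1% neutrophil UMIs kept the Igf1-high ratios: Igfbp2 was then 3.93, Igfbp4 0.40 and Igfbp5 0.82.

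Of the protease and its inhibitors, Pappa was higher by log2 0.64 [0.42 to 0.86] in Cnmd-high cells, and in Aspn-high and Igf1-high cells its intervals held 0 (0.13 [-0.06 to 0.32] and 0.29 [-0.05 to 0.64]). Stc2 was higher in Cnmd-high cells (0.54 [0.39 to 0.68]) and was lower in Col10a1-high cells (-0.39 [-0.76 to -0.004]). Stc1 was lower in Rgs5-high cells (-0.87 [-1.37 to -0.36]). None of these passed 2-fold.

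**Figure D5:**
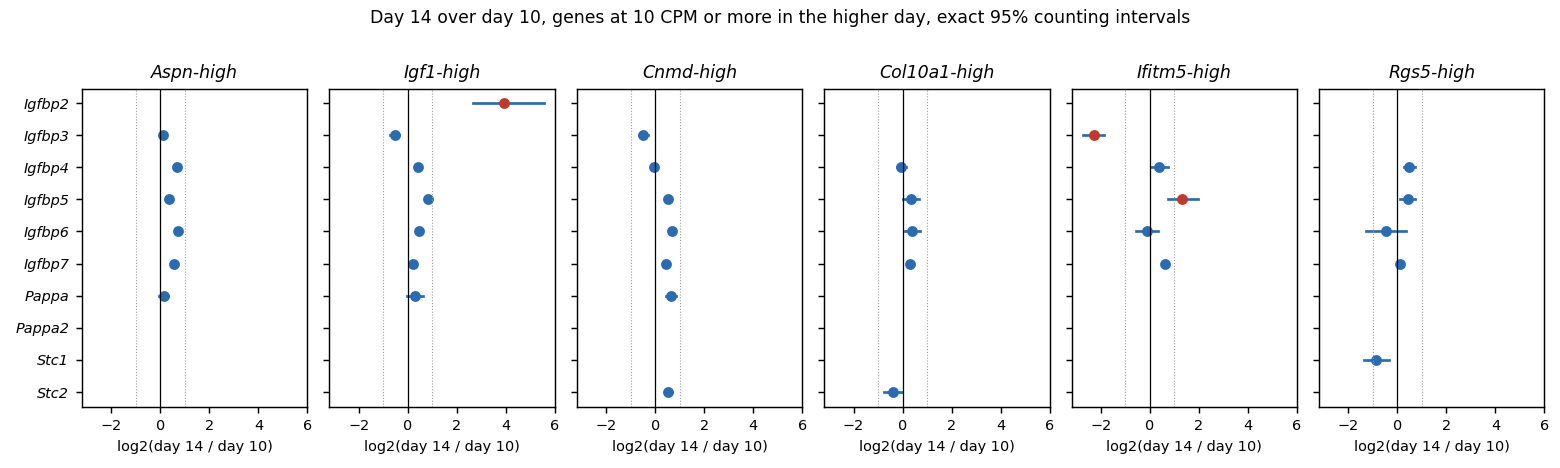
Log2 ratios of day 14 over day 10 by gate, for genes at 10 CPM or more on either day, with exact 95% counting intervals; dotted lines mark 2-fold and red points the 3 called ratios. Most points lie just right of 0, and the red points are Igfbp2 in Igf1-high cells and Igfbp3 and Igfbp5 in Ifitm5-high cells.

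At day 7 only Cnmd-high cells could be measured, in the library where neutrophil genes reached 2005 CPM in these cells and erythroid genes 249 CPM; the part of these in the following values was not tested. Of 7 genes at 10 CPM or more at day 7 or day 10, 3 passed 2-fold (background 8.21% of 7604 genes, 2.93% higher and 5.27% lower). Igfbp5 was 9.66 CPM at day 7 and 28.6 at day 10 (log2 1.56 [0.72 to 2.57]). Igfbp6 was 53.6 at day 7 and 23.9 at day 10 (-1.17 [-1.54 to -0.77]). Pappa was 32.5 and 6.90 (-2.23 [-2.73 to -1.70]). At day 7 these values came from few cells: 2 cells held 10 of 11 Igfbp5 UMIs, 5 held 45 of 61 Igfbp6 UMIs and 3 held 28 of 37 Pappa UMIs. Without an upper limit on genes, or with all deposited barcodes, the number of calls was 1 in place of 3. Over the 3 days Igfbp7 measured 1538, 2311 and 3177 CPM in this gate, and Igfbp4 measured 73.8, 135 and 131. Stc2 measured 14.9 and 15.0 CPM at day 7 and day 10, with a log2 ratio of 0.00 [-0.69 to 0.79].

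Among the other 14 genes of the pathway, 60 of 84 pairs with a gate were measured at day 10, with 8 higher and 16 lower in the gate than in the other gates; at day 14 there were 9 and 17 of 60. The gate gene Igf1 is among these 14, and its calls follow from the gates: without it, 7 were higher and 12 lower of 54 at day 10 and 8 and 13 of 54 at day 14, beside the 9.38% and 9.5% and the 7.16% and 9.99% over all genes. Adam9, Adam12 and Htra1 encode further proteases that cut IGF binding proteins. In Aspn-high cells all of them were above 2-fold on both days. Htra1 stood at 717 and 758 CPM there, 608 and 562 in Rgs5-high and 166 and 236 in Cnmd-high cells. Adam12 was 183 and 112 in Rgs5-high, 133 and 110 in Ifitm5-high, 112 and 71.0 in Aspn-high, and 6.49 and 5.63 CPM in Col10a1-high cells. The receptor gene Igf1r lay between 26.7 and 82.8 CPM in all gates, highest in Col10a1-high cells (82.8 and 81.7), where the summed binding protein level was lowest. Igf2r, which takes up IGF2, was highest in Rgs5-high cells (305 and 154).

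From day 10 to day 14, 4 of 58 measured pairs of these genes passed 2-fold upward and 5 downward, beside 1.11% and 1.54% over all genes. Of the 4 upward calls, 3 were for Igf1. Igf2 fell in Igf1-high cells from 122 to 43.6 CPM (log2 -1.49 [-1.66 to -1.31]) and in Col10a1-high cells from 26.9 to 8.08. The adaptor gene Irs2 fell in Igf1-high cells from 37.8 to 17.3, in Cnmd-high cells from 53.3 to 22.5 and in Rgs5-high cells from 43.7 to 19.8. Igf1 rose in the 3 gates with the least of it: from 6.49 to 28.4 CPM in Col10a1-high, from 4.14 to 30.8 in Ifitm5-high and from 5.33 to 55.1 in Rgs5-high cells. Cells with a Ptprc UMI of day 14 held Igf1 at 185 CPM. Igfbp1, Igfbpl1, Igfals and Prg2 were at or below 3 UMIs or 1.42 CPM in the gates of day 10 and day 14.

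Likeness to other genes was described by the Pearson correlation of log2(CPM + 10) over the 13 groups of a gate and day with at least 50 cells, among 7515 genes at 20 CPM or more in one of them. The groups of a day share a library, so no test is given. Igfbp4 was most like Egfr (0.987), Cxcl16 (0.981) and Igfbp5 (0.979). Igfbp5 was most like Vgll3 (0.983), Igfbp4 and Cxcl12 (0.974). Igfbp6 was most like Tmem26 (0.981), Igfbp3 most like Srpx2 (0.941), Igfbp7 most like Set (0.951), Pappa most like Gdi2 (0.971) and Stc2 most like Ntan1 (0.963). Stc1 was most like Emcn (0.999), a value set by the Rgs5-high groups. The highest Pappa level among the groups, 32.5 CPM, was that of day 7 Cnmd-high cells, where 3 cells held 28 of 37 UMIs. The part of that group in the Pappa correlations was not tested. The members varied in their likeness to each other: Pappa had 0.824 with Igfbp6 and 0.673 and 0.577 with Igfbp4 and Igfbp5, while Stc2 had negative values with all 5 of Igfbp3 to Igfbp7 (-0.258 to -0.544).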

How the data were processed

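Callus cells of C57BL/6 mice were captured with a 10x Genomics 3′ kit, 1 library each for day 7, day 10 and day 14. The deposited values are raw UMI counts per gene and barcode, made by the authors with Cell Ranger. Its version is 3.0 in the submitters' processing notes (build mm10), 3.1.0 per the file headers and a later one in the study's methods, and the methods and the labels differ on the kit version. No limits had been applied to the deposited counts. Kept here were cells with 500 to 5000 genes, at most 10% mitochondrial and 5% hemoglobin UMIs; the gene limit was the only step against doublets. Counts were summed per gate and day and given as CPM with exact Poisson intervals. Ratios have exact binomial intervals. A group needed 20 cells for a value and 50 for a ratio. With 1 library per day no test between days was possible. For shares of cells, each cell was thinned to 2000 UMIs and shallower cells were left out. Tools were Python 3.11.15, numpy 2.4.6, scipy 1.17.1, pandas 2.3.3 and matplotlib 3.10.9, and the ratio code was tested on simulated data. Genes named are the 10 members, 14 further pathway genes, the gate and marker genes and the 3 genes most like each member. Members and lists were chosen with earlier results of these data known. Gene positions are from GENCODE annotation of GRCm38. Promoters are from RefSeq (GRCm38.p6), which matched 8 of the 10 genes.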

Additional observations from a re-analysis of the deposited data

Results flagged for a closer look

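The ratios of Stc2 between day 10 and day 14 had opposite signs in the 2 cartilage gates: the log2 ratio of day 14 over day 10 was 0.54 [0.39 to 0.68] in Cnmd-high cells and -0.39 [-0.76 to -0.004] in Col10a1-high cells. The difference between the gates was not tested, since each day is 1 library. With only cells high for exactly 1 gate gene the Col10a1-high ratio was 0.16, with the mean over cells it was 0.07, and with cells thinned to 2000 UMIs the Cnmd-high ratio was -0.11.

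Pappa stood at 40.2 CPM at day 10 in cells high for no gate gene, above every gate of that day; these cells entered no ratio between gates.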

How the results depend on the processing

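With the 99th percentile divided by 2 as the threshold, the cells in the 6 gates numbered 5323 in place of 10388, with too few day 7 cells for a ratio. Of the 10 genes, 3 passed 2-fold between day 7 and day 10 in the main setting, 1 without an upper limit on genes, 1 with all deposited barcodes and 5 without the 10 CPM minimum. Between day 10 and day 14 the 3 calls became 5 with thinned cells and 15 without that minimum. Thinning turned 4 called log2 ratios: Stc2 over the other gates to 0.079 in Ifitm5-high cells at day 10, and to 0.88 and 0.030 in Rgs5-high cells at day 10 and day 14, where 0 UMIs were set to 3, and Igfbp5 in Ifitm5-high cells between the days to -0.29. The setting of 0 UMIs to 3 held for every ratio. Its part, and any other cause of the turned signs, was not tested. Of the 71 called ratios between gates, 68 kept their sign with thinned cells and 71 under every other alternative. Still at least 2-fold were 61 with thinned cells, 66 with the mean over cells and 68 to 71 under the others. Igfbp5 in Ifitm5-high cells ranged from -0.29 to 3.43 between the days, Igfbp3 there from -2.36 to -1.78, and Igfbp2 in Igf1-high cells from 2.58 to 4.29. The alternative without barcodes shared between libraries was chosen after seeing the data and changed no count by over 1.5 times. No paired analysis was possible because each day is 1 library. Depth limits Pappa2 and Stc1 outside Rgs5-high cells, whose levels rest on few UMIs.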

Other observations

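The cells high for no gate gene were split by other genes after their Pappa level had been seen, so these values are a description. Pappa stood at 75.1 CPM in 482 Postn-high cells at day 10 and 40.9 in 441 at day 14, and at 71.5 in 187 cells high for Scx, a tendon transcription factor gene, and 46.2 in 219. In cells high for the proliferation gene Mki67 it was 52.0 in 101 cells and 7.26 in 86. Cells high for Ibsp, a bone matrix gene, had 20.7 and 8.27 CPM, and cells high for Ihh, the signal of prehypertrophic cartilage, 5.92 and 3.85. The Ihh-high cells held Stc2 at 18.5 and 10.7 CPM, and the Ibsp-high cells at 11.4 and 14.3. In the Postn-high, Scx-high and Mki67-high cells Stc2 was at or below 9.52 CPM.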
